A study of Mus musculus with 9 samples.

Results

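The 7 genes described here, Six2, Eya1, Sox2, Sox4, Sox11, Nhlh1 and Myt1, encode regulators of otic progenitors and of the first steps of differentiation that follow. They were picked by name from the 43808 gene rows of the count tables, and each of the 7 matched 1 row. RNA was sequenced from hair cells (HCs), the mechanosensory cells of the inner ear, of P1 mice carrying 0, 1 or 2 copies of Mir96 Dmdo, a point mutation of a microRNA made in HCs. Each library came from 1 mouse, with cochlear and vestibular HCs of both ears combined, and there were 3 libraries each from wild-type mice (numbers 44, 55 and 59), heterozygous mice (45, 48 and 51) and homozygous mutant mice (43, 46 and 47). All mice, wild-type included, carried the Atoh1/nGFP reporter, which gives HCs a green nucleus, and HCs were sorted as GFP+ CD326+ cells. The Dmdo line was on C3HeB/FeJ and the reporter line on C57BL6, so the animals were of mixed background.

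SIX2 and its relatives are homeodomain factors that bind DNA, and EYA proteins have no DNA-binding domain of their own and serve such factors as coactivators. Together they act early in the otic placode, and mutation of human EYA1 causes branchio-oto-renal syndrome, which includes deafness. SOX2 marks the prosensory cells that give rise to both HCs and supporting cells and is kept by supporting cells after HCs have formed. The group C factors SOX4 and SOX11 act as cells leave the progenitor state, and NHLH1 (a basic helix-loop-helix factor) and MYT1 (a zinc finger factor) are best known from newly born neurons.

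The mutated microRNA is shown first because the genotypes differ in its seed, the stretch that pairs with target mRNAs. Mature miR-96 lies at chr6:30169506-30169528 on the minus strand (GRCm38.p6, RefSeq). Bases 2 to 8, the seed, are in capitals, and the substitution A7U is counted from the 5′ end of the mature sequence.
wild-type miR-96: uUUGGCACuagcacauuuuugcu
Dmdo miR-96: uUUGGCUCuagcacauuuuugcu
The letters that pair with these seeds in a 3′ UTR are GTGCCAA for the wild-type form and GAGCCAA for Dmdo, and TGCCAAA and AGCCAAA where base 8 is left unpaired and an A follows. None of the 4 was found on the mRNA strand of the longest annotated 3′ UTR or of any other isoform of the 7 genes. The longest 3′ UTRs ran from 906 bases in Six2 to 6957 bases in Sox11 and came to 17048 bases in all. Among 12980 genes tested for expression that have an annotated 3′ UTR (median 1218.5 bases), 9.83% held GTGCCAA, 10.4% GAGCCAA, 14.4% TGCCAAA and 13.8% AGCCAAA. The search covered these letters in these windows and no other kind of site.

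All 7 genes passed the filter on low counts, which left 15184 genes. The libraries held 18175317 to 34873964 counted reads, and the smallest read count of a member in any library was 452, for Sox11. Error from read number alone was small beside the differences between libraries. Those differences hold mouse and library preparation, PCR included, which cannot be told apart because no mouse had replicate libraries. Levels are given as CPM, the reads of a gene scaled to the total of its library. HC markers were high in every library, led by Otof, Myo6 and Pou4f3, and their summed level over the 11 of 12 markers matched was 9990.1 to 14775 CPM in wild-type, 9865 to 13824 in heterozygous and 8302 to 9865 in homozygous mutant HCs. Supporting cell markers (15 genes, led by Otog, Tectb and Gjb2) summed to 1859.5 to 3778 CPM in wild-type, 1935 to 3376 in heterozygous and 1728 to 2522 in homozygous mutant HCs. Of the 12 markers of inner ear neurons, Neurog1 had no reads in any library, and the list summed to 91.5 to 154 CPM. Mesenchyme markers summed to 134 to 267 CPM in 8 libraries and to 931 CPM in homozygous mutant 46, and glial markers to 166 to 417 CPM. All 5 red blood cell genes had no reads, and the endothelial, macrophage, melanocyte and cell division lists summed to at most 18.3 CPM in any library. The libraries of wild-type 59 and homozygous mutant 46 stood apart from the rest on the first and second principal components, which held 23.1% and 19.5% of the variance. The study reports lower RNA integrity for a wild-type and a homozygous mutant sample than for the rest, and kept them because samples were limited. Its smallest number of sorted cells was also in a homozygous mutant sample. RNA integrity and cell numbers were not matched to libraries here, and their part in the results was not tested.

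Per kilobase of exon, the 7 genes ranged from the top few percent of tested genes to below the middle. Sox2 had the highest mean, 148 ± 22.5 CPM per kb (SD, n = 9), followed by Nhlh1 at 136 ± 39.2. Sox2 was above Nhlh1 in only 5 of 9 libraries, and the ranges of the pair overlapped. Sox4 followed at 67.0 ± 10.7 CPM per kb and was below Nhlh1 in 8 of 9 libraries. Six2 at 43.1 ± 25.7 and Eya1 at 36.1 ± 6.98 CPM per kb were not separated, with Six2 the higher in 4 of 9 libraries. With the longest transcript in place of all exons as the length, Eya1 stood at 64.6 CPM per kb and moved ahead of Six2. Myt1 at 13.4 ± 3.27 and Sox11 at 3.17 ± 0.935 CPM per kb were below the gene before them in 9 of 9 libraries, with no overlap of ranges. Sox2 was above 97.8% of the genes tested, Nhlh1 above 97.6%, Sox4 above 94.2%, Six2 above 90.2%, Eya1 above 88.0%, Myt1 above 68.4% and Sox11 above 32.1%. The group C partners Sox4 and Sox11 were thus far apart in level.

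**Figure D1:**
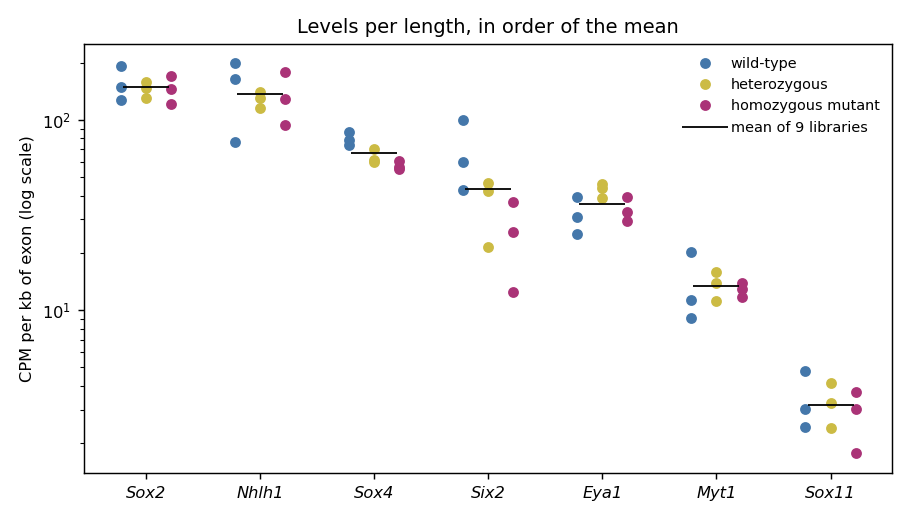
CPM per kilobase of exon (vertical log axis) of each of the 7 genes in each of the 9 libraries, coloured by genotype, with the mean of the 9 libraries as a black line. Genes are ordered by their mean, from 148 CPM per kb for Sox2 to 3.17 for Sox11, and Six2 has the widest spread.

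Within the levels of single genes, Six2 varied the most, with the highest library 8.0 times the lowest. The same ratio was 1.56 for Sox4, 1.59 for Sox2, 1.83 for Eya1, 2.24 for Myt1, 2.57 for Nhlh1 and 2.70 for Sox11. Sox4 and Sox2 were the steadiest.

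Six2, best known for holding nephron progenitors of the kidney in an undifferentiated state, lies at chr17:85684277-85688274 on the minus strand (GRCm38) and was the member that differed most between genotypes. Its level was 90.3, 212 and 128 CPM in the wild-type libraries, 45.3, 98.2 and 89.5 CPM in the heterozygous libraries and 26.5, 54.7 and 78.0 CPM in the homozygous mutant libraries. Every homozygous mutant library was below every wild-type library, by 12.3 CPM between the nearest pair, while the heterozygous libraries overlapped both groups. Of all genes tested, 7.72% had every homozygous mutant library below every wild-type library. The mean was 143 ± 62.3 CPM (SD, n = 3) in wild-type, 77.7 ± 28.3 in heterozygous and 53.1 ± 25.8 in homozygous mutant HCs, so the homozygous mutant mean was 37.1% and the heterozygous mean 54.2% of wild-type. Fewer cells that make Six2 and less Six2 RNA per cell cannot be told apart in these bulk libraries.

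The slope of Six2 on the number of Dmdo alleles was -0.76 log2 units per allele (SE 0.20, 95% interval -1.16 to -0.35), with an adjusted p of 0.0689 in edgeR's quasi-likelihood test over all genes. Six2 thus fell with Dmdo alleles at a false discovery rate under 10%, and it was 1 of 270 genes that passed, 1.78% of those tested. The direct comparison of homozygous mutant with wild-type HCs, in which both copies of the wild-type seed are replaced by the altered one, gave a log2 fold change of -1.51 (SE 0.42, 95% interval -2.38 to -0.64) for Six2. Its adjusted p of 0.116 in edgeR was just above the limit of 10%, at which 1.15% of genes were called with a fold change above 1.5. DESeq2 (adjusted p = 0.0352) and limma-voom with quality weights (0.0296) called the same difference, with log2 fold changes of -1.49 and -1.87. Both called a larger share of all genes in this comparison, 6.36% and 2.23%, and 5 of 19 alternatives called Six2. The study, which used DESeq2, listed Six2 among the genes lowered in homozygous mutant HCs. Heterozygous and wild-type HCs differed in Six2 by -0.97 log2 units (95% interval -1.82 to -0.11, adjusted p = 1 in edgeR), and homozygous mutant and heterozygous HCs by -0.54 (95% interval -1.40 to 0.31, adjusted p = 0.913 in edgeR).

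The Six2 slope was negative under all 18 alternatives, between -1.03 and -0.48 log2 units per allele, but it passed the threshold in 9 of them. Leaving out any one of wild-type 55 (slope -0.57, adjusted p = 0.302 in edgeR), wild-type 59 (-0.77, 0.180), heterozygous 51 (-0.76, 0.108), homozygous mutant 43 (-0.60, 0.256) or homozygous mutant 46 (-0.77, 0.183) ended the call. Homozygous mutant mice all had numbers of 47 or lower, while 2 of 3 wild-type and 2 of 3 heterozygous mice had higher numbers, and the sources used here do not give what the numbers stand for. Among mice numbered 47 or lower Six2 stood at 90.3 CPM in the wild-type mouse, 45.3 in the heterozygous mouse and 26.5 to 78.0 in the 3 homozygous mutant mice, and among higher numbers at 128 and 212 CPM in wild-type and 89.5 and 98.2 in heterozygous mice. With the number class as a term in the fit the slope was -0.48 (adjusted p = 0.585 in edgeR). In that fit homozygous mutant HCs differed from wild-type HCs by -0.77 (adjusted p = 0.723 in edgeR), and their difference from heterozygous HCs turned to 0.21. Genotype also went in part with Xist and Ddx3y, transcripts that mark sex. Xist stood above Ddx3y in wild-type 44 and 59, heterozygous 48 and no homozygous mutant. With that class in the fit the slope was -0.81 (adjusted p = 0.367 in edgeR). The difference of homozygous mutant from wild-type HCs was then -1.60 (adjusted p = 0.546 in edgeR), and the part of sex was not tested. The summed HC markers also stood lower in every homozygous mutant than in every wild-type library (8302 to 9865 against 9990.1 to 14775 CPM). The matched markers did not all move by the same amount. Between homozygous mutant and wild-type HCs the log2 fold change was -1.18 in Espn, which was called (adjusted p = 0.0236 in edgeR). It was -1.07 in Otof, -0.88 in Myo7a, -0.69 in Gfi1, -0.44 in Cdh23 and -0.22 in Lhfpl5. The rest had -0.11 (Atoh1), -0.10 (Myo6), 0.03 (Pou4f3), 0.06 (Pcp4, SE 0.59) and 0.38 (Tmc1, SE 0.43). The part of these markers in the Six2 result was not tested. In homozygous mutant 46, which had the high mesenchyme sum, Six2 lay between the other 2 homozygous mutant libraries.

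**Figure D2:**
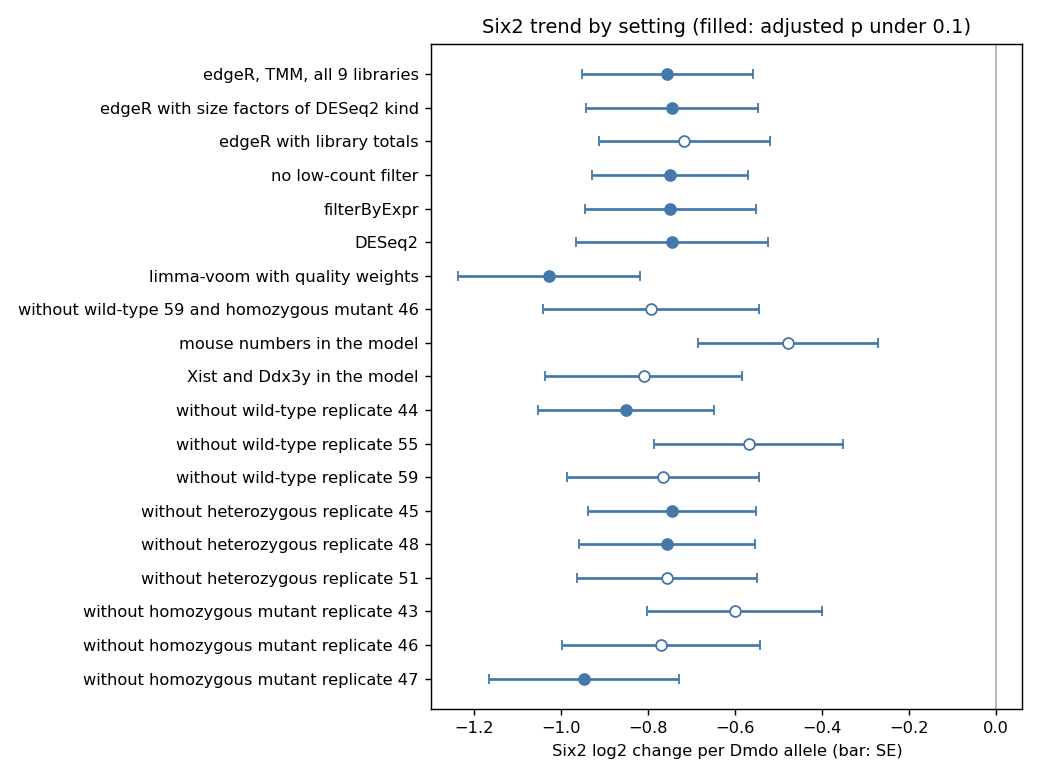
Slope of Six2 on the number of Dmdo alleles (horizontal axis, log2 change per allele, bars: SE) in the fit of all 9 libraries and under 18 alternatives. Every slope is below 0, between -1.03 and -0.48 in the alternatives, and filled points mark an adjusted p under 0.1, in 9 of the 18.

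The start of Six2 is shown because it is the member called in the trend with all 9 libraries, together with that of Sox4, the next in rank. Each window runs from 250 bases before to 50 after the start of the RefSeq gene (GRCm38.p6) and is written 5′ to 3′ on the gene's strand, here at chr17:85688205-85688504 (minus) and chr13:28953650-28953949 (minus). Capitals mark matches on either strand to CANNTG (the E-box bound by helix-loop-helix factors such as NHLH1), ACAAT (bound by SOX factors) or TCAGGTT (bound by SIX2 and its relatives).
Six2: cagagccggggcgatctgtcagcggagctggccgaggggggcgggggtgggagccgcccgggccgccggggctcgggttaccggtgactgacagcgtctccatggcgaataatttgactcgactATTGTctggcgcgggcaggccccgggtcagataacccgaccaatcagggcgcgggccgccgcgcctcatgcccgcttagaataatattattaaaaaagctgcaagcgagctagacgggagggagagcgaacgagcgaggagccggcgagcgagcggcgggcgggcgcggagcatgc
Sox4: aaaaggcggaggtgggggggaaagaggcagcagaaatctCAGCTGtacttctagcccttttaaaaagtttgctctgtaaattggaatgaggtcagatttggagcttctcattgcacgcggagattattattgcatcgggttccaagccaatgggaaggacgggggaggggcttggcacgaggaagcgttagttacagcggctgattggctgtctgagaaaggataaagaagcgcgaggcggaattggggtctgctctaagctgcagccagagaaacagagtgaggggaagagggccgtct
The Six2 window held 1 SOX pentamer and the Sox4 window 1 E-box, and none of the windows matched for the members held TCAGGTT. Of 32851 windows of the same length, 72.3% held an E-box, 31.0% the SOX pentamer and 4.07% TCAGGTT. The members split by CpG content, which the choice of genes did not use. The ratio of observed to expected CpG was 1.13 in Six2, 0.819 in Sox2, 0.817 in Sox11 and 0.679 in Sox4, all above the median of 0.384 over all windows, and 0.084 in Nhlh1 and 0.057 to 0.093 in the 3 windows of Myt1. No window was matched for Eya1.

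Eya1, whose protein is a coactivator of SIX2 and its relatives and also a phosphatase, lies at chr1:14168954-14310235 on the minus strand. It stood at 241, 305 and 197 CPM in wild-type, 342, 303 and 360 CPM in heterozygous and 256, 229 and 307 CPM in homozygous mutant HCs. The heterozygous libraries were the highest as a group but touched both other groups. The log2 fold change was 0.01 for homozygous mutant against wild-type (95% interval -0.49 to 0.52), 0.35 for heterozygous against wild-type (-0.16 to 0.85) and -0.34 for homozygous mutant against heterozygous HCs (-0.84 to 0.17), and none passed. Six2 and its possible partner therefore had different patterns across the same 9 libraries, with a fold change interval for Eya1 between homozygous mutant and wild-type HCs that lies inside 1 log2 unit on either side of 0.

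Sox4, a single-exon group C SOX gene at chr13:28948919-28953713 on the minus strand, was the other member with groups that did not overlap. It stood at 375, 356 and 413 CPM in wild-type, 338, 295 and 287 CPM in heterozygous and 290.1, 272 and 265 CPM in homozygous mutant HCs. All 3 wild-type libraries were above all 6 others, and the heterozygous and homozygous mutant ranges overlapped slightly. All heterozygous libraries were below all wild-type libraries in 4.11% of the genes tested. The means were 381 ± 28.9, 307 ± 27.6 and 276 ± 12.9 CPM (SD, n = 3 each), and the homozygous mutant mean was 72.3% of wild-type. The difference was smaller than that of Six2, with a log2 fold change of -0.55 for homozygous mutant against wild-type HCs (SE 0.23, 95% interval -1.03 to -0.08, adjusted p = 0.300 in edgeR), and did not pass. Its slope was -0.28 per Dmdo allele (SE 0.11, 95% interval -0.50 to -0.05, adjusted p = 0.246 in edgeR). DESeq2 alone among the alternatives called it, with an adjusted p of 0.0955, and DESeq2 called 6.84% of all genes in the trend. Within mouse numbers of 47 or lower, Sox4 was 375 CPM in the wild-type, 338 in the heterozygous and 265 to 290.1 CPM in the 3 homozygous mutant mice, and above 47 it was 356 and 413 CPM in wild-type against 287 and 295 CPM in heterozygous mice. An antisense gene, Gm26735, overlaps Sox4, and without the strand setting of the counting, not given in the sources used here, their reads cannot be told apart.

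Sox11, the other group C member (chr12:27334264-27342574, minus strand), was the lowest of the 7. It stood at 20.2, 25.0 and 39.7 CPM in wild-type, 26.9, 19.9 and 34.4 in heterozygous and 31.0, 25.2 and 14.7 in homozygous mutant HCs. The 3 groups overlapped throughout, and the interval of the homozygous mutant to wild-type difference was the widest of the 7 genes, -1.51 to 0.79 around -0.36 log2 units (adjusted p = 0.853 in edgeR).

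Sox2, the prosensory and supporting cell factor, lies at chr3:34650405-34652461 on the plus strand, inside the non-coding gene Sox2ot, which is on the same strand and reached at most 10.9 CPM. Sox2 stood at 304, 395 and 261 CPM in wild-type, 302, 267 and 325 in heterozygous and 249, 348 and 298 in homozygous mutant HCs. These ranges largely coincided. The homozygous mutant mean of 298 ± 49.6 CPM was 93.2% of the wild-type mean of 320.1 ± 68.6 (SD, n = 3 each), a log2 fold change of -0.18 with a 95% interval from -0.69 to 0.33 (adjusted p = 0.826 in edgeR). A change of more than 1 log2 unit in either direction lay outside that interval. The study describes Sox2 as active in several cell types of the developing inner ear, developing HCs among them. Supporting cell markers summed to 1728 to 3778 CPM over the libraries. How far the level of Sox2 came from HCs or from supporting cells was not tested.

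Nhlh1 (chr1:172052292-172057573, minus strand) and Myt1 (chr2:181763332-181827797, plus strand), the members known from newborn neurons, were both present in every library. The neuron marker list, led by Snap25, Ntrk3 and Ntrk2, was low but not absent (91.5 to 154 CPM summed), and its part in these levels was not tested. Nhlh1 stood at 189, 403 and 488 CPM in wild-type, 284, 345 and 322 in heterozygous and 316, 230.4 and 441 in homozygous mutant HCs. Myt1 stood at 146, 65.3 and 81.5 CPM in wild-type, 114, 100.4 and 80.1 in heterozygous and 99.6, 93.2 and 84.7 in homozygous mutant HCs. In both genes the wild-type libraries spanned the values of the other groups, and wild-type 44 had the lowest Nhlh1 and the highest Myt1 of all 9 libraries. Homozygous mutant and wild-type HCs differed by -0.23 log2 units in Nhlh1 (95% interval -0.87 to 0.42) and by -0.16 in Myt1 (-0.84 to 0.53), with adjusted p of 0.826 and 0.900 in edgeR.

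**Figure D3:**
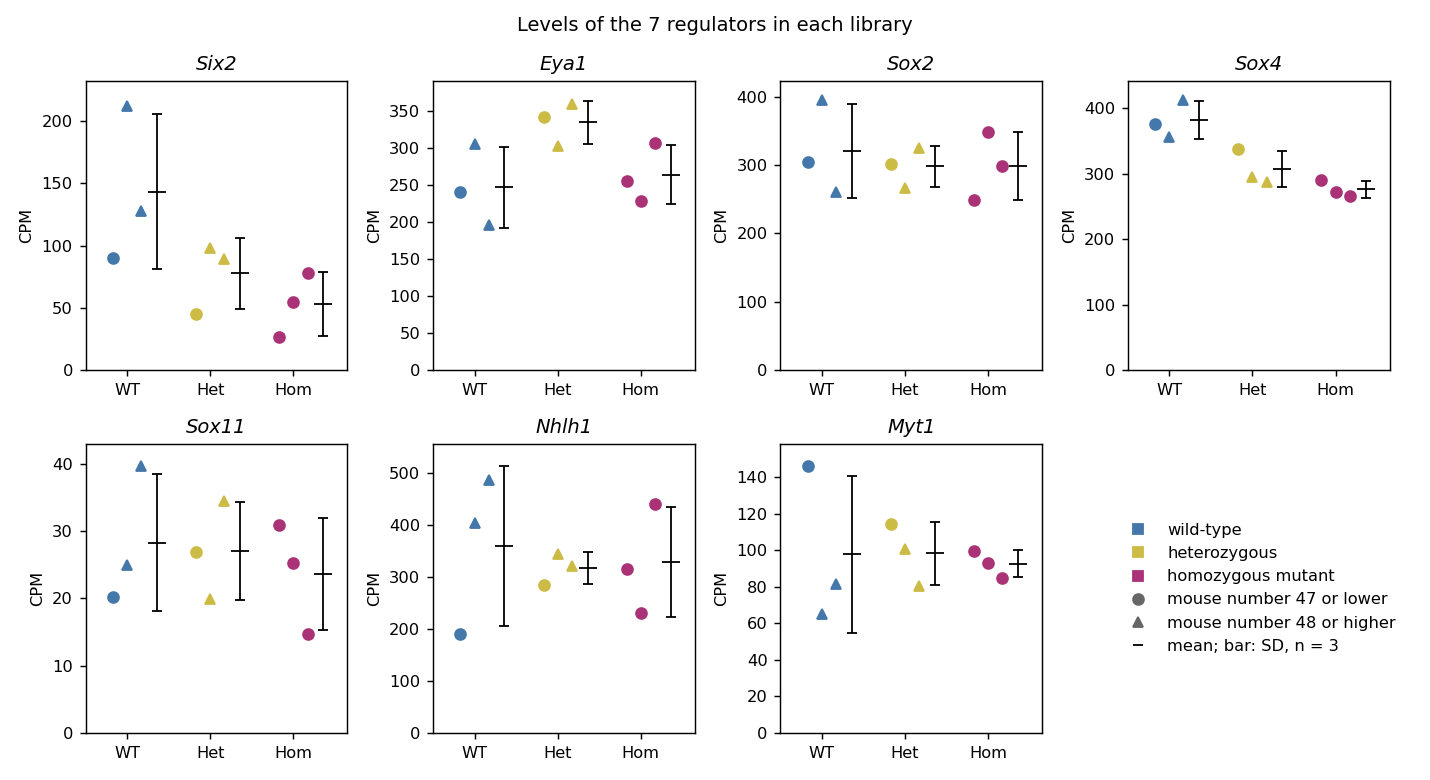
CPM (vertical axes, from 0) of each gene in the 3 libraries of each genotype, with the mean and SD (n = 3) in black and with circles for mouse numbers of 47 or lower and triangles for higher numbers. Six2 and Sox4 are the panels in which every homozygous mutant library lies below every wild-type library.

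Counted over the comparisons, 0 of the 7 members passed in homozygous mutant against wild-type HCs, 0 in heterozygous against wild-type, 0 in homozygous mutant against heterozygous, and 1 (Six2) in the trend. Over all genes the shares called were 1.15%, 0%, 0.00659% and 1.78%. Of all genes, 686 had an unadjusted p under 0.05 in heterozygous against wild-type HCs with edgeR, and DESeq2 called 45 and limma-voom 1. The median log2 fold change of all genes tested was -0.02 in homozygous mutant against wild-type HCs, and 6 of the 7 members lay below 0.

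**Figure D4:**
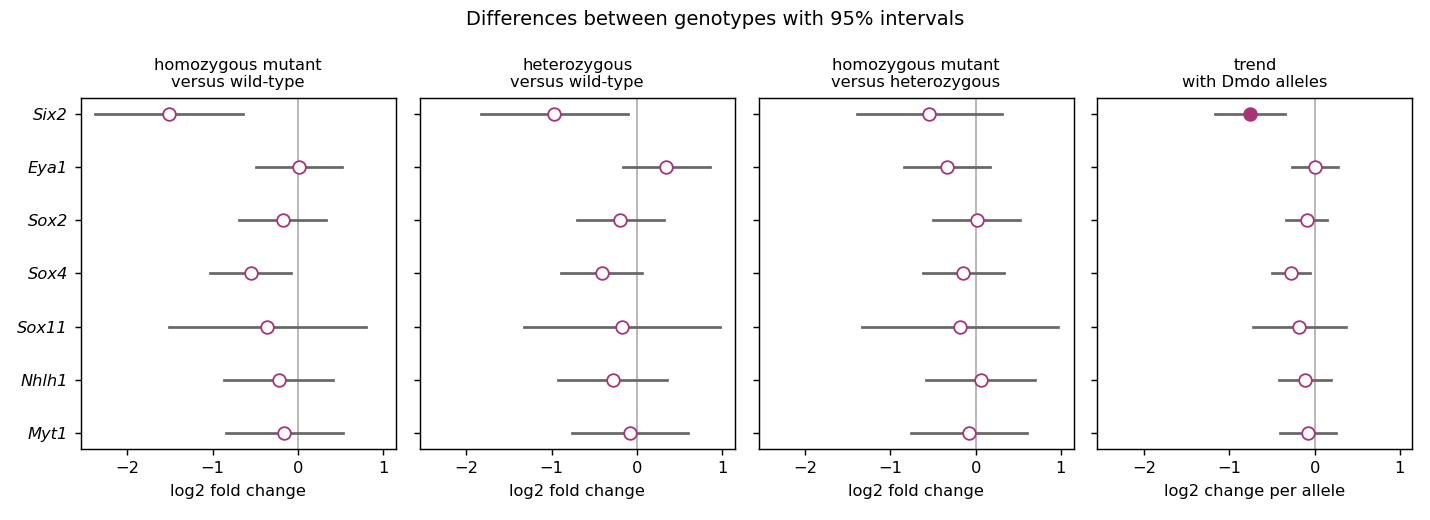
Log2 fold changes (horizontal axes) of the 7 genes in the 3 comparisons of genotypes and per Dmdo allele in the trend, as points with 95% intervals from the edgeR fit. The filled point, Six2 in the trend at -0.76, is the one that passed, and the Six2 interval in homozygous mutant against wild-type HCs runs from -2.38 to -0.64.

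Around these genes stands a larger network, described here by 4 lists. Of 14 genes of the Pax-Six-Eya-Dach network, 11 were tested. None was called in homozygous mutant against wild-type HCs, and Six2 alone was called in the trend. The list's median log2 fold change was -0.34, beside -0.02 over all genes, with 9 of 11 below 0. After Six2 the smallest p-value belonged to Six4, at -0.57 (SE 0.33, adjusted p = 0.476 in edgeR), which ranged from 84.8 to 149.9 CPM in wild-type and from 66.5 to 112 CPM in homozygous mutant HCs.

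Of the 11 SOX genes of groups B, C and E, 10 were tested and none was called in either direction, with a median of -0.51 and 8 of 10 below 0. Sox12, the third group C gene, stood at 168 to 275 CPM in wild-type and 103 to 155 CPM in homozygous mutant HCs. These ranges did not overlap, and 7.72% of all genes tested were likewise lower in every homozygous mutant library. The log2 fold change of Sox12 was -0.99 (SE 0.33, adjusted p = 0.200 in edgeR). The group B gene Sox21 had -1.09 (SE 0.40, adjusted p = 0.243 in edgeR), with 54.1 to 200.3 CPM in wild-type and 46.1 to 61.3 CPM in homozygous mutant HCs. The 3 group C genes thus all had estimates below 0, at -0.55, -0.36 and -0.99 for Sox4, Sox11 and Sox12, and none passed.

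All 18 genes of prosensory patterning were tested, and 1 was called, with a median of -0.18 and 10 of 18 below 0. Gata3, a zinc finger factor needed for otic development and for hearing, fell in homozygous mutant HCs by 1.33 on the log2 scale (SE 0.34, adjusted p = 0.0826 in edgeR) and was also called in the trend. Wild-type libraries held 169 to 269 CPM of Gata3, heterozygous libraries 74.1 to 214 CPM and homozygous mutant libraries 74.8 to 102 CPM. The Notch ligand gene Jag1 had -0.88 (SE 0.34, adjusted p = 0.271 in edgeR) and Prox1, a supporting cell factor, -1.29 (SE 0.63, adjusted p = 0.388).

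Of 20 nascent HC and proneural genes 17 were tested and 1 was called, with a median of -0.23 and 13 of 17 below 0. Srrm4, a splicing regulator of HCs and neurons, fell by 1.27 on the log2 scale (SE 0.31, adjusted p = 0.0696 in edgeR) and was called in the trend as well. It stood at 156 to 292 CPM in wild-type and 88.2 to 124 CPM in homozygous mutant HCs. The HC transcription factor genes Gfi1 and Barhl1 had -0.69 (SE 0.24, adjusted p = 0.216 in edgeR) and -0.81 (SE 0.29, adjusted p = 0.243). Like that of Six2, the calls of Gata3 and Srrm4 depended on single libraries. Leaving out any of 6 of the 9 ended each in homozygous mutant against wild-type HCs, with adjusted p up to 0.319 and 0.278 in edgeR. These were wild-type 55 and 59, heterozygous 51 and all 3 homozygous mutants. With the mouse number class in the fit both had adjusted p above the threshold in edgeR (0.675 and 0.648, at -0.69 and -0.71). With Xist and Ddx3y in the fit both were above it as well (0.715 and 0.636, at -1.01 and -1.09).

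**Figure D5:**
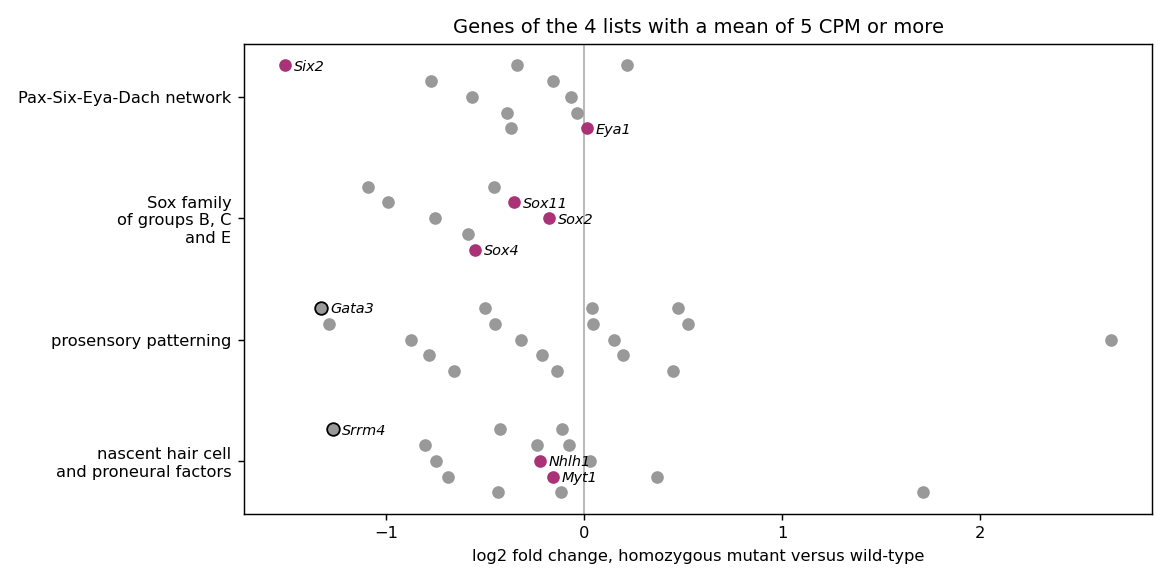
Log2 fold change of homozygous mutant against wild-type HCs (horizontal axis) for 52 of the 56 list genes tested, those with a mean of at least 5 CPM, in 4 rows by list. The 7 members are coloured and black outlines mark Gata3 at -1.33 and Srrm4 at -1.27, which passed, while Six2 at -1.51 did not.

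The profiles of the members over the 9 libraries were compared on log2 CPM, as a description. The points share genotype, depth and the libraries that stand apart, and the genes named are the extremes of 15183. Six2 was most like Dag1 (Pearson r = 0.96, Spearman rho = 0.97, n = 9) and Mllt6 (r = 0.95, rho = 0.97). Sox4 was most like Arid3b (r = 0.98, rho = 0.93) and Gm20033 (r = 0.97, rho = 0.97), and Eya1 like Zc3h3 (r = 0.96, rho = 0.87) and Marf1 (r = 0.96, rho = 0.90). The nearest to Nhlh1 were Dph6 (r = 0.97, rho = 0.98) and Sos2 (r = 0.95, rho = 0.93), and to Myt1 they were Gm4459 (r = 0.94, rho = 0.97) and Hmgn5 (r = 0.92, rho = 0.85). Sox2 was nearest to Clcn6 (r = 0.92, rho = 0.77) and Trpc4ap (r = 0.91, rho = 0.82), and Sox11 to 4930453N24Rik (r = 0.91, rho = 0.85) and Aldh4a1 (r = 0.91, rho = 0.88). No member was among these for another. Among the members, Pearson r was highest for Six2 with Sox2 (r = 0.61, rho = 0.30) and Spearman rho for Six2 with Sox4 (r = 0.56, rho = 0.57), and both were lowest for Nhlh1 with Myt1 (r = -0.70, rho = -0.65).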

How the data were processed

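The authors sorted HCs, made 1 directional library per mouse, aligned the reads with HISAT2 2.0.4 to GRCm38 and counted them per gene with HTSeq. The deposited values are raw counts, with genes annotated through BioMart, and how strand was treated in HTSeq was not given in the sources used here. Genes entered the test with 20 or more reads in 2 of 3 libraries of at least 1 genotype, in edgeR 4.0.16 (R 4.3.3, TMM, robust quasi-likelihood fit of all 9 libraries, Benjamini-Hochberg adjustment over all genes). A gene was called below a false discovery rate of 10% when its fold change also exceeded 1.5, a fold threshold left out in the trend on 0, 1 or 2 alleles. DESeq2 1.42.0, limma 3.58.1, other scalings, filters and sample sets were alternatives. The study itself used DESeq2 with the same thresholds, and its table of lowered genes holds Six2, Gata3, Srrm4 and Gfi1. Gene positions, exon lengths and 3′ UTRs came from GENCODE vM21, and promoter windows and miR-96 from RefSeq (GRCm38.p6). The genes of smallest p in each list and the 2 most alike of each member were named by rule, except that 1 list gene is not reported here. Levels in CPM used all counted reads. The members, lists and alternatives were chosen with earlier results of these data known. The study describes its wild-type mice as littermates of the mutants, but the labels do not say which of the mice shared a litter or a sorting day.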

Additional observations from a re-analysis of the deposited data

How the results depend on the processing

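No alternative called a member in heterozygous against wild-type or in homozygous mutant against heterozygous HCs. In homozygous mutant against wild-type HCs 1 member, Six2, was called with no filter on low counts, with DESeq2 and with limma-voom, and 0 to 1 with 1 library left out (1 without wild-type 44 or heterozygous 45). In the trend 2 were called with DESeq2 (Six2 and Sox4), and 0 with library totals as the scaling, without wild-type 59 and homozygous mutant 46, with mouse numbers in the model and with Xist and Ddx3y in the model, and 0 to 1 with 1 library left out. The cause of these changes was not tested. Six2 and Sox4 estimates stayed below 0 against wild-type and in the trend in all of them. Mouse numbers in the model turned Six2 in homozygous mutant against heterozygous HCs to 0.21.

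Signs also turned for estimates near 0. In homozygous mutant against wild-type HCs, Eya1 became -0.049 with limma-voom, -0.0092 without wild-type 59 and homozygous mutant 46 and -0.18 with Xist and Ddx3y. Nhlh1 became 0.30 without those 2 libraries and 0.36 with mouse numbers, and Myt1 0.036 with limma-voom and 0.19 with Xist and Ddx3y. With 1 library left out Eya1 ran from -0.11 to 0.17, Sox11 from -0.56 to 0.0026, Nhlh1 from -0.53 to 0.090 and Myt1 from -0.39 to 0.24. In heterozygous against wild-type HCs Sox11 became 0.092 with limma-voom and 0.20 without the 2 libraries, Nhlh1 0.040 without them, and Myt1 0.0095 with library totals and 0.12 with Xist and Ddx3y. Left-out libraries gave -0.37 to 0.19 for Sox11, -0.59 to 0.031 for Nhlh1 and -0.31 to 0.32 for Myt1. In homozygous mutant against heterozygous HCs Sox2 became -0.12 with limma-voom, -0.12 without the 2 libraries and -0.090 with Xist and Ddx3y, Sox11 0.053 with mouse numbers, and Myt1 0.038 with limma-voom and 0.065 with Xist and Ddx3y. Left-out libraries gave -0.12 to 0.15 for Sox2, -0.41 to 0.064 for Sox11, -0.21 to 0.26 for Nhlh1 and -0.21 to 0.022 for Myt1. In the trend Eya1 became -0.054 with limma-voom, -0.0046 without the 2 libraries and -0.082 with Xist and Ddx3y, Nhlh1 0.15 without them and 0.14 with mouse numbers, and Myt1 0.064 with limma-voom and 0.093 with Xist and Ddx3y. Left-out libraries gave -0.078 to 0.088 for Eya1, -0.25 to 0.046 for Nhlh1 and -0.19 to 0.10 for Myt1. The Gata3 and Srrm4 calls also ended without wild-type 59 and homozygous mutant 46 and with Xist and Ddx3y in the model, and that of Gata3 in homozygous mutant against wild-type HCs with library totals.

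Over all genes, the 175 calls of homozygous mutant against wild-type HCs (139 lower, 36 higher) became 146 (98 lower, 48 higher) with library totals, 562 with no filter, 966 with DESeq2, 338 with limma-voom, 110 in the fit of the compared genotypes alone, 23 without wild-type 59 and homozygous mutant 46, 25 with mouse numbers and 12 with Xist and Ddx3y. The 270 calls of the trend became 466 with no filter, 1038 with DESeq2, 783 with limma-voom, 21 without the 2 libraries, 59 with mouse numbers and 15 with Xist and Ddx3y. With 1 library left out, the calls of homozygous mutant against wild-type HCs were 697 without wild-type 44, 75 without wild-type 55, 26 without wild-type 59, 71 without heterozygous 51, and 20, 71 and 26 without homozygous mutant 43, 46 and 47, and 150 and 235 without heterozygous 48 and 45. Those of the trend were 920 without wild-type 44, 109 without wild-type 55, 44 without wild-type 59, 165 without heterozygous 51, 34, 84 and 54 without homozygous mutant 43, 46 and 47, and 252 and 230 without heterozygous 48 and 45. Against wild-type, heterozygous HCs had 0 calls, 3 with no filter, 45 with DESeq2, and 1 each with limma-voom, with mouse numbers and without wild-type 55. Homozygous mutant against heterozygous HCs had 1 call, and 69 with no filter, 147 with DESeq2, 151 with limma-voom, 2 in the fit of the pair, and 0 to 6 with 1 library left out (6 without heterozygous 45, 4 without wild-type 44). Xist stood above Ddx3y in wild-type 44, wild-type 59 and heterozygous 48 and in no homozygous mutant. With the longest transcript as length Eya1 stood at 64.6 and Myt1 at 17.5 CPM per kb, in place of 36.1 and 13.4. No paired analysis was made, because the labels do not say which mice shared a litter or a sorting day.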
